A study of Mus musculus with 12 samples.

Results

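DN4 thymocytes of IkL/L mice were compared with DN4 thymocytes of wild-type (WT) mice. The comparison rests on 4 of the 12 arrays of the study, which were chosen by their labelled stage and genotype, and it covers every probe set with 1 gene symbol. These probe sets represent 18194 genes, of which 11649 were tested. Each genotype had 2 DN4 arrays, as did the DN3 and DP cells of both genotypes, which served to estimate the spread and to compare stages. The cells were sorted from thymus after those of 3 mice had been combined. The series describes the IkL/L cells as Ikaros-deficient. The form of the allele, the age and strain of the mice and the gates of the sorts are not given in the sources used here. It is also not given whether the arrays of a group came from separate pools, so p-values measure the spread between these arrays, which may be partly technical. For IkL/L cells, Y-linked signals given below show that replicates 1 and 2 did not come from the same pool. In pooled cells, fewer cells of a type and less RNA per cell cannot be told apart.

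DN4 cells are thymocytes that have passed the checkpoint for a working T cell receptor beta chain, have shut off CD25 and do not yet carry CD4 or CD8. They divide quickly and go on to the double positive (DP) stage. Ikzf1 encodes Ikaros, a lymphoid DNA-binding protein with zinc fingers that recognises DNA through the core GGGAA and works with chromatin complexes such as NuRD and Polycomb. It is known in thymocytes as a restraint on Notch target genes and as a tumour suppressor.

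The values are log2 signals, and a difference of 1 is a doubling. Medians of the 12 arrays lay between 5.14 and 5.22, and a signal under the array's own median may be mostly background. In DN4 cells Ikzf1 read 11.78 and 11.88 (WT) and 11.22 and 11.18 (IkL/L), a difference of -0.63 (adjusted p = 0.0101), so its transcript was still well measured in IkL/L cells. A dimmer probe set of Ikzf1 gave -1.03. Its call was lost without replicate 2 of WT DN4, or replicate 1 or 2 of IkL/L DN4 (adjusted p up to 0.0944). The position of its probe sets relative to the changed stretch of the gene is not given in the sources used here. Of the co-receptor transcripts, Cd8a lay between 6.68 and 7.88 on the 4 DN4 arrays and at or above 12.52 on the 4 DP arrays, and Cd4 between 6.20 and 6.51 in DN4 cells. Cd8b1 was higher in DN4 cells and differed by genotype, at 9.40 and 9.55 (WT) and 7.86 and 7.78 (IkL/L). Its WT means were 6.05 in DN3 and 12.63 in DP cells. None of the 10 measured T lineage markers was below the array median on all 4 DN4 arrays. Of 9 B cell markers, Cd79a, Ms4a1, Ebf1 and Blnk were below it on all 4, as were Itgam, Cd14, Mpo and Fcgr3 of 11 myeloid markers and Ncr1, Klrd1, Eomes, Gzmb and Prf1 of 9 NK cell markers. The other 5 B cell, 7 myeloid and 4 NK cell markers reached it on at least 1 DN4 array. Among them were Cd79b (6.81 to 7.13), Cebpb (5.88 to 6.97) and Gzma (12.62 to 12.89). So did 4 of 6 erythroid and 5 of 10 thymic epithelial and stromal markers. Summed linear signals were 449 and 485 (WT) against 433 and 441 (IkL/L) for the B cell markers, and 444 and 462 against 511 and 340 for the myeloid ones. The Y-linked gene Eif2s3y read 7.78 and 8.55 on the WT DN4 arrays but 8.39 and 3.12 on the IkL/L DN4 arrays. On IkL/L replicates 1 and 2 it read 8.81 and 2.82 in DN3 cells and 9.01 and 2.95 in DP cells. Kdm5d and Uty, also Y-linked, followed the same pattern. IkL/L replicate 2 thus came from another pool than replicate 1, with Y-linked signals below the array median at every stage. Without the 3 IkL/L replicate 2 arrays 410 genes were called in place of 802.

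In IkL/L DN4 cells the signals of Trim2, Dock1, Mmp14 and other genes near background in WT cells were higher, and those of Cd69, Nkg7, Runx3 and Cd8b1, known from maturing or cytotoxic T cells, were lower. Of these, only Cd8b1 rose by stage in WT cells, with means of 6.05, 9.47 and 12.63 in DN3, DN4 and DP cells. The same means were 9.23, 9.15 and 8.67 for Cd69, 10.21, 7.72 and 5.20 for Nkg7 and 6.66, 6.32 and 4.86 for Runx3. Of the 11649 tested genes, 802 (6.88%) passed the test at an adjusted p under 0.05 (limma, Benjamini-Hochberg). Among them 513 (4.4%) were higher in IkL/L cells, with a median difference of 0.83, and 289 (2.48%) were lower, with a median of -0.76. A rise of more than 1 was reached by 185 genes and a fall of more than 1 by 77. Both WT arrays were below the array median for 67 of the rises, and both IkL/L arrays for 50 of the falls, so these differences start or end at background and may understate how far the RNA moved. The groups did not overlap for any of the 802 genes, which was also true of 60.6% of all tested genes.

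The number of calls and their balance were sensitive to single arrays and to scaling. Leaving out WT DN4 replicate 1 gave 339 calls and replicate 2 gave 248. Of the IkL/L DN4 arrays, leaving out replicate 1 gave 318 and replicate 2 gave 261. A core of 182 genes, 135 higher and 47 lower, was called in all of these fits and also without each of the other 8 arrays. IkL/L arrays had higher upper signals, with a 75th percentile of 7.51 and 7.53 against 7.34 and 7.42 for WT. Over 10 classes of genes by brightness the median difference went from -0.16 and -0.18 in the dimmest 2 to 0.22 in the brightest. A second quantile normalization moved the median over all genes from -0.002 to -0.109. It turned the balance of calls from 64% higher to 34% higher (363 higher and 704 lower). Of the core of 182 genes, 181 were still called after it, 134 higher and 47 lower. List medians given below after this normalization include the shift of the median over all genes.

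**Figure D1:**
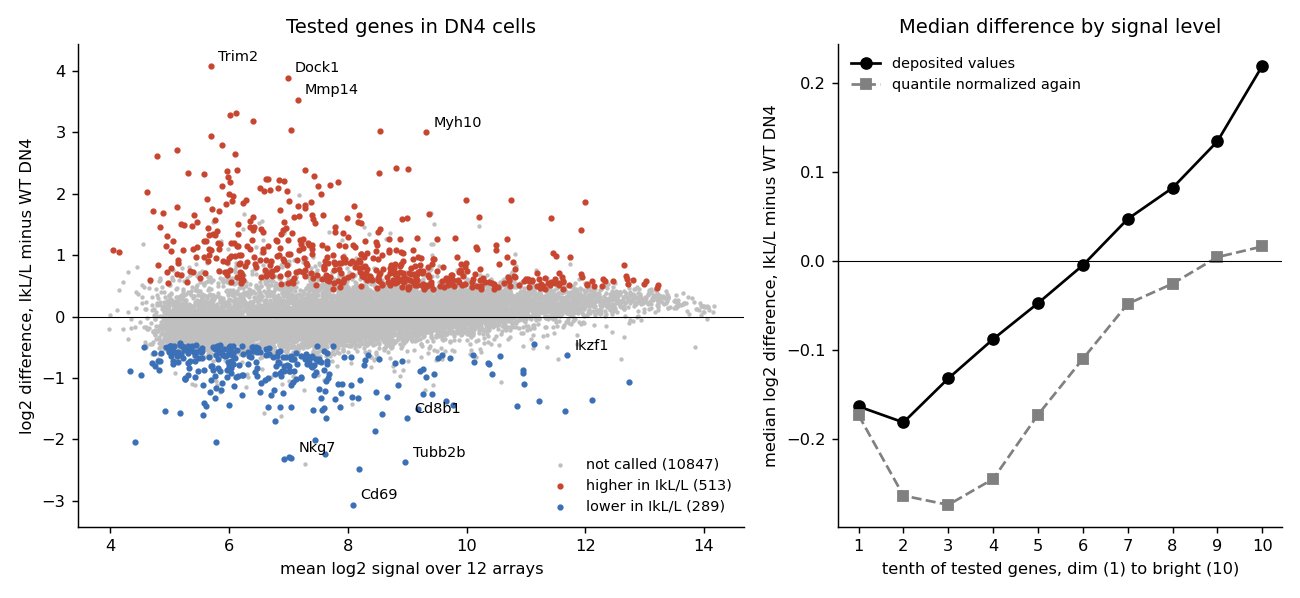
Left, the difference IkL/L minus WT in DN4 cells (log2, vertical) against the mean signal over 12 arrays (log2, horizontal) for each tested gene, with the 513 genes called higher in red, the 289 called lower in blue and the others in grey. Right, the median difference in each of 10 classes by brightness, from -0.18 to 0.22 in the deposited values (black circles) and from -0.27 to 0.02 after a second quantile normalization (grey squares).

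The 15 largest rises included genes of the cell surface, the cytoskeleton and gene regulation. Trim2, a ubiquitin ligase known from neurons, read 3.84 and 3.8 in WT and 7.5 and 8.29 in IkL/L cells, a difference of 4.08 ± 0.32 (SE; adjusted p = 1.93e-05). Both WT values are below the array median, so the transcript went from background to a clear signal. Dock1, an activator of the GTPase Rac, read 5.71 and 4.83 against 9.37 and 8.94 (3.89 ± 0.28; adjusted p = 1.19e-05). Mmp14, a membrane-anchored protease that cleaves matrix and surface proteins, read 5.24 and 5.27 against 8.92 and 8.64. Both arrays of each genotype were close together for Mmp14 and far from those of the other genotype. The immunoglobulin-domain membrane protein gene Ptgfrn went from 4.42 and 4.91 to 8.01 and 7.96, and the small GTPase gene Rab34 from 4.96 and 4.82 to 8.28 and 7.87. Myh10, the heavy chain of non-muscle myosin IIB, was measured in WT cells at 8.02 and 8.25 and was higher in IkL/L cells at 11.12 and 11.15 (3.0 ± 0.15; adjusted p = 3.05e-06). Ppic, a cyclophilin, showed a like pattern at 7.9 and 7.32 against 10.65 and 10.6.

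Sertad4 read 3.59 and 3.64 in WT and 6.73 and 6.38 in IkL/L cells. Psma8, a proteasome subunit gene of germ cells, read 5.04 and 5.1 against 8.14 and 7.59, and the chromatin reader gene Spin4 3.98 and 3.83 against 6.71 and 6.51. The zinc-finger genes Zfp711 (4.42 and 4.51 against 7.09 and 7.13) and Zfp948 (3.4 and 3.39 against 6.3 and 5.72) were, like Sertad4 and Spin4, below the array median on both WT arrays. The adhesion gene Mpzl2 went from 7.69 and 8.12 to 10.3 and 10.33 and the Krüppel-like factor gene Klf9 from 7.5 and 7.89 to 9.92 and 10.28. These 7 differences lay between 2.4 and 2.94, and no overlap between genotypes was a condition for choosing them. In all, 8 of the 15 largest rises began below the array median. Mid1, a microtubule-bound ubiquitin ligase encoded on the X chromosome, differed by 3.03 but unevenly, at 6.21 and 6.26 in WT against 8.39 and 10.14 in IkL/L cells. Its higher value was on IkL/L replicate 2, the array with Eif2s3y at 3.12 against 8.39 on replicate 1, and whether that bears on Mid1 was not tested. Mid1 lost its call without replicate 1 or 2 of WT DN3, replicate 1 or 2 of WT DN4, replicate 2 of IkL/L DN4, or replicate 1 or 2 of IkL/L DP (adjusted p up to 0.283) and with the mean of its probe sets (0.92). The other 14 kept theirs without each of the 12 arrays in turn.

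The largest fall was that of Cd69, a surface protein induced by antigen receptor signals. It read 8.92 and 9.38 in WT and 5.67 and 6.5 in IkL/L cells, a difference of -3.06 ± 0.48 (adjusted p = 0.00287), which is 12% of the WT level. Trib2, a pseudokinase, read 8.76 and 8.91 against 6.35 and 6.37 (-2.48 ± 0.20; adjusted p = 2.3e-05). The beta-tubulin gene Tubb2b read 9.75 and 9.99 against 7.46 and 7.53 (-2.37 ± 0.14; adjusted p = 6.43e-06). For both, the arrays of a genotype lay within 0.3 of each other and the genotypes more than 2 apart. Nkg7, a granule protein of cytotoxic cells, fell from 7.53 and 7.92 to 5.34 and 5.52. The transketolase-like gene Tktl1 fell from 6.05 and 6.55 to 4.38 and 4.12, below the array median. Prr13 read 7.77 and 8.06 against 5.69 and 5.48, and Zfp982 7.33 and 6.68 against 4.97 and 4.96. The neurofilament gene Nefh went from 8.6 and 8.14 to 6.93 and 6.41 and the scaffold gene Grasp from 8.39 and 8.56 to 6.72 and 6.93. Glipr1 read 8.69 and 8.7 against 7.22 and 7.0, and Ddc, the gene of the aromatic amino acid decarboxylase, 5.51 and 5.66 against 4.16 and 3.87. Lsp1, an actin-binding leukocyte gene, read 7.89 and 8.4 against 6.38 and 6.2 (adjusted p = 0.000743). The HMG-box factor gene Tox2 (-2.0), the CD8 beta chain gene Cd8b1 (-1.65) and Runx3 (-1.59) complete the 15, and their values by array stand with their groups. The call of Tox2 was lost without any 1 of the 4 DN4 arrays (adjusted p up to 0.11), and that of Nefh without replicate 1 of WT DN4, or replicate 2 of IkL/L DN4 (adjusted p up to 0.0753). The other 13 kept theirs without each array.

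**Figure D2:**
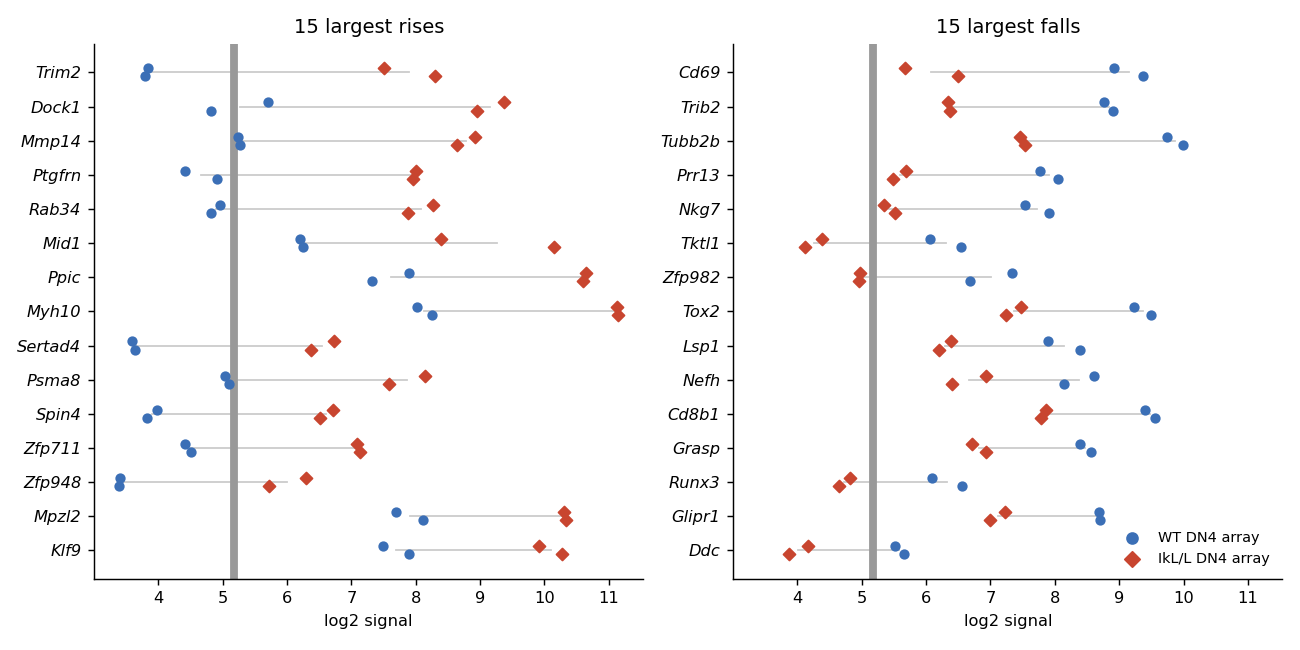
Log2 signal (horizontal) of the 15 largest rises (left) and 15 largest falls (right) on each of the 2 WT (blue circles) and 2 IkL/L (red diamonds) DN4 arrays. Grey lines join the group means, and the grey bar spans the medians of the 12 arrays. Trim2 runs from 3.84 and 3.80 to 7.50 and 8.29, and only Mid1 among the rises has IkL/L arrays more than 1 apart.

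Size depended on the probe set for several of these genes. Averaging all probe sets of a gene left Trim2 at 1.6, Dock1 at 2.12, Mmp14 at 1.38, Ptgfrn at 1.72, Zfp711 at 1.17, Zfp948 at 1.23 and Klf9 at 1.02, all still called. Among the falls it left Trib2 at -0.96, Tox2 at -1.23, Ddc at -0.82, Grasp at -0.86, Runx3 at -0.94 and Glipr1 at -0.84, all still called. Both tested probe sets of Rab34 differed alike (3.35 and 3.18), and those of Mpzl2 read 2.41, 2.54 and 1.12. The dimmer tested probe sets of Mmp14 gave 0.52 and 0.09 and did not pass. Over all called genes, 401 had 737 other tested probe sets, of which 636 had the same sign (155 of them called) and 101 the opposite (2 called).

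The promoters of the 3 largest rises and the 3 largest falls that the RefSeq table holds are shown because Ikaros binds the letters GGGAA. Each runs from 250 bases before to 50 after the first-listed start, 5′ to 3′ along the gene, in build GRCm38.p6, and capitals mark GGGAA or its complement TTCCC. Trim2 (chr3:84304726-84305025, minus strand), Dock1 (chr7:134670437-134670736, plus strand) and Mmp14 (chr14:54431348-54431647, plus strand) rose in IkL/L cells. Trib2 (chr12:15816736-15817035, minus strand), Nkg7 (chr7:43436888-43437187, plus strand) and Tktl1 (chrX:74177009-74177308, plus strand) fell.
Trim2: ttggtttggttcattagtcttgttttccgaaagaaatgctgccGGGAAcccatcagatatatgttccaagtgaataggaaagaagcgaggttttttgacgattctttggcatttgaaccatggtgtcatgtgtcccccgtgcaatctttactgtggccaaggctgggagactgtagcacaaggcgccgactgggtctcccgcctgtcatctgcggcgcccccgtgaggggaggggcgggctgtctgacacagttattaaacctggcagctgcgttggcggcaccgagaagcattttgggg
Dock1: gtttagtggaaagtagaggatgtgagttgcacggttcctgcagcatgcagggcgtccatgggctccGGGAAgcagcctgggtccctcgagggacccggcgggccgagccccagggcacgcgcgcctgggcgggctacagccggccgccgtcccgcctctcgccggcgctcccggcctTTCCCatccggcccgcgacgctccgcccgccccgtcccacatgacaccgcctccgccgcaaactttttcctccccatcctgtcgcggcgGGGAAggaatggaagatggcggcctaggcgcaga
Mmp14: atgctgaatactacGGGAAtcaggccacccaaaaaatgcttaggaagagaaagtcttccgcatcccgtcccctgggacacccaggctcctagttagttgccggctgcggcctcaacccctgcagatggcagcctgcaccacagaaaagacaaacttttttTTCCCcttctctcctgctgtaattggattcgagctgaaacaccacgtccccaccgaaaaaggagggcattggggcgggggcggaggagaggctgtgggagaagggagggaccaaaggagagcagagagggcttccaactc
Trib2: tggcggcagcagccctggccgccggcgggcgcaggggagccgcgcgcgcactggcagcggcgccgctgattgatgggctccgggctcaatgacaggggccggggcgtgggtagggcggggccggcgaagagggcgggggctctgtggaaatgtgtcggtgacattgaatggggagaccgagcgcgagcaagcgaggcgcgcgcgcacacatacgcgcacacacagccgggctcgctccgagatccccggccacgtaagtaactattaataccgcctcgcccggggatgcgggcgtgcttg
Nkg7: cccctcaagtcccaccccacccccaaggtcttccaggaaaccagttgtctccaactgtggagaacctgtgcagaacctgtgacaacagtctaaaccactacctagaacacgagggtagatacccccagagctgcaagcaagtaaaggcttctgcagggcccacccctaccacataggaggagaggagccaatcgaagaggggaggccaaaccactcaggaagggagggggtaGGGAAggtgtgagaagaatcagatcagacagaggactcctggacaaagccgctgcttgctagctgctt
Tktl1: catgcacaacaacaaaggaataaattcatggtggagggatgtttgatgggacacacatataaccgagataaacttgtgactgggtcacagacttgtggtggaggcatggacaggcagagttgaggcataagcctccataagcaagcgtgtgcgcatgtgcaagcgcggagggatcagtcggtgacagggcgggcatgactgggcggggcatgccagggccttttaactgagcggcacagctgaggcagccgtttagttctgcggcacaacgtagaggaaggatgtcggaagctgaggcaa

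The motif occurred 1 time in the Trim2 window, 3 times in that of Dock1 and 2 times in that of Mmp14, on either strand. Nkg7 held 1 site, and the windows of Trib2 and Tktl1 held none of these letters. Of the 15 largest rises, 11 matched the table and all 11 windows held GGGAA, against 4 of 8 matched among the 15 largest falls. The motif is common: it was in 62.3% of all 27025 promoters of this length, in 64.3% of the 9454 tested genes that matched, in 71.5% of 404 matched called rises and in 65.6% of 218 matched called falls. The longer form TGGGAA, which contains GGGAA, was in 25.5% of all promoters, 27% of the called rises, 22% of the called falls and 6 of the 11 largest rises. Trim2 has 5 listed starts, of which 1 was read. These are matches of letters and not measured binding.

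Among 19 tested genes that mark mature T cells, 6 fell in IkL/L DN4 cells and none rose, beside 2.48% of all genes that fell, and the list median was -0.99 against -0.002 for all genes. Cd69 was the deepest. This list and those below were chosen with earlier results of these data known. Shares above that of all genes may come from that choice. Tox2, which is expressed in maturing thymocytes, read 9.23 and 9.5 against 7.47 and 7.25. Runx3, the factor that sets the CD8 lineage and silences Cd4, read 6.09 and 6.56 in WT and 4.81 and 4.65 in IkL/L cells (-1.59 ± 0.23; adjusted p = 0.00194). Both IkL/L values are below the array median. Cd52, a small lymphocyte surface glycoprotein, read 9.41 and 9.47 against 8.25 and 7.9, and the GTPase gene Gimap6 7.57 and 7.4 against 6.72 and 6.24. Other members lay below 0 without passing, among them Gimap4 (-1.14), the lymph node homing receptor gene Ccr7 (-1.1), Klf2 (-0.86), a factor that drives exit from the thymus, and Il7r (-0.62). The remaining 4 above 0 were uncalled too, Ikzf2 with 0.45 and Foxp1 with 0.40 among them. The list median was -0.42 in DN3 and -0.25 in DP cells. Calls among the members numbered 2, 2, 4 and 2 without WT DN4 replicate 1, WT DN4 replicate 2, IkL/L DN4 replicate 1 and IkL/L DN4 replicate 2, all lower, and 8 after the second quantile normalization. Cd69 and Runx3 kept their calls throughout, while Gimap6 was not called with averaged probe sets (-0.76), and Cd52 lost its call without replicate 1 or 2 of WT DN4, or replicate 2 of IkL/L DN4 (adjusted p up to 0.105) and Gimap6 without replicate 1 or 2 of WT DN4, or replicate 2 of IkL/L DN4 (adjusted p up to 0.196).

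Cytotoxic and gamma-delta T cell genes also included falls and no rise. Of 17 tested members 5 fell (29.4%, beside 2.48% of all tested genes), with a list median of -0.36. Besides Nkg7, these were the kinase gene Blk, expressed in gamma-delta T and B cells (8.44 and 8.84 in WT against 6.89 and 7.45 in IkL/L cells; adjusted p = 0.00547), and Sox13, a factor of the gamma-delta lineage (8.15 and 8.63 against 7.34 and 7.31; adjusted p = 0.0123). The genes for cystatin F, Cst7 (6.18 and 6.72 against 5.63 and 5.43), and cathepsin W, Ctsw (7.41 and 7.76 against 6.86 and 6.75), fell by less. The IkL/L and WT arrays did not overlap for any of these 5, as for all 802 called genes and 60.6% of all tested genes. Etv5, another gamma-delta factor, read 8.03 and 8.26 against 7.16 and 6.68 and just missed the threshold (adjusted p = 0.0533). The granzyme gene Gzma was among the brightest genes of both genotypes at 12.81 and 12.62 against 12.71 and 12.89, and the gamma variable segment Trgv4 read 11.1 and 10.77 against 10.89 and 11.08. Neither was called, and for both the genotypes overlapped. The NK genes Ncr1, Klrd1, Eomes and Gzmb were below the array median on all 4 arrays. The summed signal of the list was 11826 and 11118 in WT and 10046 and 11418 in IkL/L cells, most of it Gzma. Calls among the members numbered 3, 1, 1 and 2 without each DN4 array in the order WT replicate 1, WT replicate 2, IkL/L replicate 1, IkL/L replicate 2. The call of Nkg7 was kept in each, that of Blk was lost without replicate 2 of WT DN4, or replicate 1 of IkL/L DN4 (adjusted p up to 0.0785), that of Sox13 without replicate 2 of WT DN4, or replicate 1 or 2 of IkL/L DN4 (adjusted p up to 0.139), that of Ctsw without any 1 of the 4 DN4 arrays, or replicate 1 or 2 of WT DN3 (adjusted p up to 0.255) and that of Cst7 without any 1 of the 4 DN4 arrays, replicate 1 or 2 of WT DN3, replicate 1 or 2 of WT DP, or replicate 1 or 2 of IkL/L DP (adjusted p up to 0.313).

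Transcripts that mark the step to the DP stage did not move together. Of 29 tested DP stage genes 2 fell and 2 rose, and the median was 0.24 (0.09 after the second quantile normalization). Relative to the median of all genes, it was 0.24 before and 0.20 after that normalization. With averaged probe sets 6 rose and 2 fell. Cd8b1 read 9.4 and 9.55 in WT and 7.86 and 7.78 in IkL/L cells (adjusted p = 0.00109), or 31.8% of the WT level, whereas its partner chain Cd8a read 7.05 and 7.88 against 6.9 and 6.68 and did not pass (adjusted p = 0.1). Cd4 read 6.35 and 6.2 against 6.5 and 6.51 and was not called. Ccr9, the receptor for the thymic chemokine CCL25, read 11.42 and 11.55 against 9.76 and 10.15 (-1.53 ± 0.16; adjusted p = 0.000171), and of its 4 other tested probe sets 2 fell, by 1.76 and 2.08, and 2 did not pass (-0.19 and -0.09). Plxnd1, a semaphorin receptor that guides DP cells, rose (6.27 and 6.69 against 7.45 and 7.29), as did the chromatin organiser gene Satb1 (12.52 and 12.57 against 13.01 and 13.24). Rag1 read 11.52 and 11.63 against 12.04 and 12.15 and Rag2 8.49 and 8.29 against 8.91 and 8.75, neither called. The calls of Cd8b1 and Ccr9 were kept without each array. With averaged probe sets Satb1 was at 1.24 and still called. Satb1 was not called after the second quantile normalization (0.31), and lost its call without any 1 of the 4 DN4 arrays, or replicate 1 or 2 of WT DN3 (adjusted p up to 0.251). Plxnd1 lost its call without replicate 1 of WT DN4, or replicate 1 or 2 of IkL/L DN4 (adjusted p up to 0.139).

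Among 23 tested genes listed for the preceding DN3 stage, 5 fell and 3 rose, with a median of -0.12 (0.13 with the filter at the 75th percentile). The DN3 list median ranged from -0.20 (without IkL/L DN4 replicate 2) to -0.030 (without IkL/L DN4 replicate 1) with 1 DN4 array left out, and 0 to 2 rises and 3 to 5 falls were called. The falls were Tubb2b, Ccr9, the E-cadherin gene Cdh1 (4.4 and 4.42 against 3.43 and 3.47, all below the array median), the CD25 gene Il2ra (-0.80) and Nrarp (-0.80). Not all of these followed the list's name: mean WT signals in DN3, DN4 and DP cells were 8.56, 9.87 and 11.56 for Tubb2b and 11.05, 11.49 and 13.41 for Ccr9, which is also in the DP stage list. Runx1, a factor needed across thymocyte stages, rose from 9.73 and 9.95 to 10.72 and 10.88 (0.97; adjusted p = 0.00541). The pre-T cell receptor alpha gene Ptcra was not called at 9.36 and 9.44 against 9.77 and 9.81. Runx1 lost its call without replicate 1 of WT DN4, or replicate 2 of IkL/L DN4 (adjusted p up to 0.0637), and Il2ra without replicate 1 or 2 of WT DN3, replicate 2 of WT DN4, or replicate 1 or 2 of IkL/L DN4 (adjusted p up to 0.287).

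Notch pathway genes moved in both directions. Notch signalling cleaves the receptor at the membrane, and its freed part joins the DNA-binding protein RBPJ to switch on target genes. Of 22 tested members 3 rose and 3 fell, with a median of 0.27 (0.17 after the second quantile normalization). Relative to the median of all genes, the list lay at 0.28 both before and after that normalization. The receptor gene Notch1 was bright and higher in IkL/L cells, at 12.07 and 12.31 against 12.82 and 13.24 (0.84 ± 0.15; adjusted p = 0.00724). Rbpj rose from 9.18 and 9.18 to 9.82 and 9.88, and the target Igf1r, a growth factor receptor gene, from 8.13 and 8.02 to 9.15 and 9.54 (adjusted p = 0.00275). In the other direction, the target and feedback inhibitor Nrarp fell from 7.11 and 7.47 to 6.61 and 6.38 (adjusted p = 0.0101) and the target Il2ra from 5.7 and 6.25 to 5.08 and 5.27. The classic target Hes1 read 7.24 and 7.92 against 7.36 and 8.04 and Dtx1 7.77 and 8.27 against 7.98 and 8.46, with overlapping genotypes and no call. Igf1r kept its call without each array. Notch1 lost its call without replicate 1 of WT DN4, or replicate 2 of IkL/L DN4 (adjusted p up to 0.0928), Nrarp without replicate 2 of WT DN4, or replicate 2 of IkL/L DN4 (adjusted p up to 0.116), and Rbpj without any 1 of the 4 DN4 arrays (adjusted p up to 0.159). Rbpj was not called with the mean of its probe sets (0.39).

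**Figure D3:**
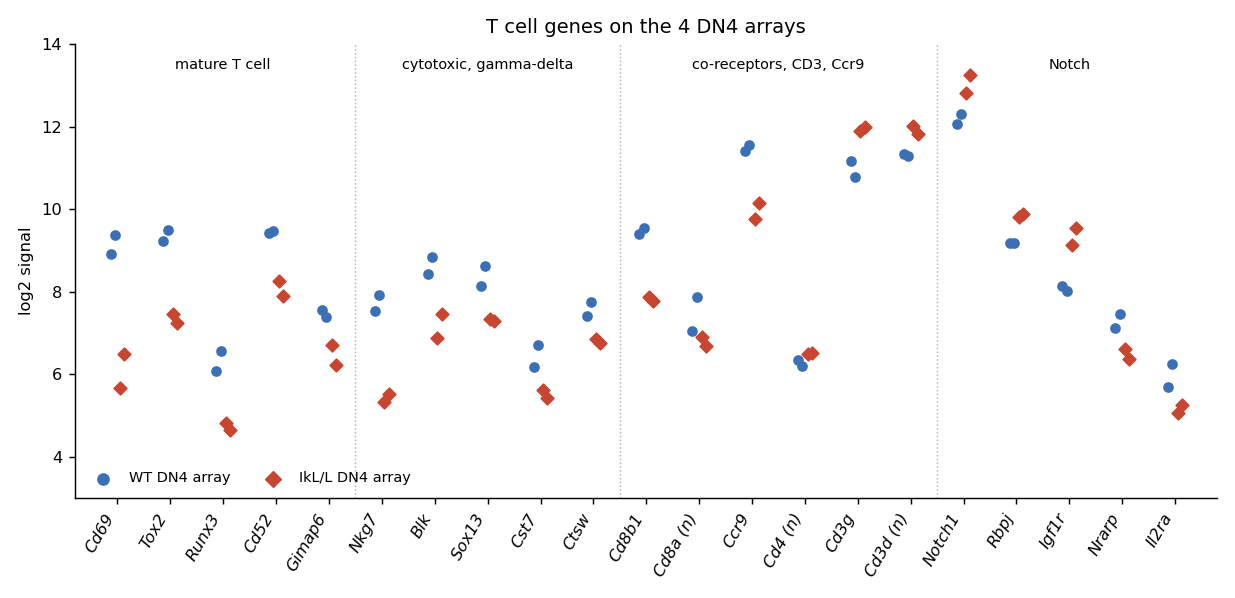
Log2 signal (vertical) of mature T cell, cytotoxic, co-receptor and Notch genes on the 2 WT (blue circles) and 2 IkL/L (red diamonds) DN4 arrays, with (n) after genes that did not pass the test. The 10 genes of the left panels were taken from the called falls of their lists, so the IkL/L arrays lie below the WT arrays for each by this choice. The IkL/L arrays also lie below for Cd8b1, Cd8a, Ccr9, Nrarp and Il2ra, and above for Cd4, Cd3g, Cd3d, Notch1, Rbpj and Igf1r.

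Cd69 was the only called member among 29 genes that T cell receptor signals induce. The median of this list was -0.23, and 3 members were called lower after the second quantile normalization. The induced gene median ranged from -0.36 (without WT DN4 replicate 1) to -0.008 (without WT DN4 replicate 2) with 1 DN4 array left out, and 0 rises and 1 falls were called. Immediate early genes did not pass: Egr1 read 8.63 and 9.45 in WT and 9.25 and 9.62 in IkL/L cells, Nr4a1 8.8 and 9.27 against 8.09 and 9.21 and Egr2 5.77 and 6.45 against 5.1 and 5.15. The Egr1 and Nr4a1 values overlapped between genotypes, and those of Egr2 did not. Among 24 genes of the pre-T cell receptor and its first signalling steps 2 rose and 1 fell (median 0.27). The CD3 gamma chain gene Cd3g read 11.17 and 10.79 against 11.89 and 11.99 (0.96; adjusted p = 0.01), the phosphatase gene Ptprc, which encodes CD45, 12.68 and 12.58 against 13.09 and 13.2, and the phosphatase gene Ubash3b, a brake on receptor signals, 6.43 and 6.86 against 6.12 and 5.56. Cd3d lay in the same direction as Cd3g without passing (0.61; adjusted p = 0.0758). All 3 calls were fragile: Cd3g lost its call without replicate 2 of WT DN4, or replicate 1 or 2 of IkL/L DN4 (adjusted p up to 0.117), Ubash3b without replicate 1 or 2 of WT DN3, replicate 1 or 2 of WT DN4, or replicate 2 of IkL/L DN4 (adjusted p up to 0.302), and Ptprc without any 1 of the 4 DN4 arrays, replicate 1 or 2 of WT DN3, or replicate 1 or 2 of IkL/L DP (adjusted p up to 0.25). Ptprc was not called after the second quantile normalization (0.25).

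Of 35 tested transcription factors of the T lineage, 4 rose and 4 fell. Tox2, Runx3, Sox13 and Ikzf1 itself fell. Runx1 rose, as did Tcf4, an E protein gene (8.76 and 8.66 in WT against 9.55 and 9.59 in IkL/L cells; adjusted p = 0.00447). All 5 tested probe sets of Tcf4 lay between 0.57 and 0.94. The factors that commit and hold the lineage did not pass, with Bcl11b at 12.49 and 12.5 against 12.89 and 12.93 (adjusted p = 0.0534) and Gata3 at 9.7 and 10.13 against 10.02 and 10.01. Tcf4 lost its call without replicate 2 of WT DN4 (adjusted p up to 0.053).

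Adhesion genes held some of the largest changes of the comparison, in both directions. Of 30 tested members 8 rose and 4 fell, together 40% of the list beside 6.88% of all tested genes, with a median near 0 (0.04; -0.04 after the second quantile normalization). Besides Mmp14, Ptgfrn and Mpzl2, the p120 catenin gene Ctnnd1 rose from 4.88 and 4.95 to 7.59 and 7.03 (adjusted p = 7.35e-05) and Prom1, a marker of stem cell membranes, from 4.45 and 4.78 to 7.08 and 6.82 (adjusted p = 2.63e-05). WT values of both are below the array median, and averaged probe sets left Ctnnd1 at 1.34, still called. The 4 falls lay between -0.68 and -1.08. The adhesion list median ranged from -0.011 (without WT DN4 replicate 1) to 0.072 (without WT DN4 replicate 2) with 1 DN4 array left out, and 6 to 8 rises and 2 to 4 falls were called.

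Of 17 genes listed as tubulins and microtubule genes 4 fell and Mid1 rose. One of the falls, Nefh, is a neurofilament gene and neither. The others were Tubb2b, the alpha-tubulin gene Tuba8 (7.05 and 7.03 against 6.05 and 5.84; adjusted p = 0.000703) and the beta-tubulin gene Tubb3 (7.32 and 7.64 against 6.52 and 6.37; adjusted p = 0.00484). Both probe sets of Tuba8 fell, by 1.09 and 1.54. The widely expressed Tubb5 and Tuba1a differed by 0.33 and 0.03 and did not pass. Tubb3 lost its call without replicate 2 of WT DN4, or replicate 2 of IkL/L DN4 (adjusted p up to 0.068).

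Receptors for chemokines and other migration cues gave 3 falls and 2 rises among 14 tested members (35.7%, beside 6.88% of all tested genes; median -0.44), and 5 falls after the second quantile normalization. Gpr174, a lysophosphatidylserine receptor gene, fell from 7.36 and 7.11 to 5.7 and 5.82 (adjusted p = 0.0015), along with Ccr9. Of the regulators that switch off G protein signals, Rgs10 rose from 9.95 and 10.3 to 11.44 and 11.33 (adjusted p = 0.00269), and Rgs16 fell by a smaller margin (-0.55). Cxcr4, which keeps beta-selected cells in the cortex, differed by 0.32 with no call. Rgs16 lost its call without any 1 of the 4 DN4 arrays (adjusted p up to 0.227).

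Cytokine receptors and their signalling genes gave 2 rises and 2 falls among 32 tested members (12.5%, beside 6.88% of all tested genes; median -0.12), and 5 falls after the second quantile normalization. The cytokine list median ranged from -0.16 (without WT DN4 replicate 1) to -0.077 (without WT DN4 replicate 2) with 1 DN4 array left out, and 1 rises and 0 to 1 falls were called. Socs2, an inhibitor of cytokine signals, rose from 4.95 and 4.68 to 6.16 and 6.15 in limma (adjusted p = 0.0015). Both WT values are below the array median. The other tested probe sets of Socs2 gave 0.75 and -0.25, and the mean of all its probe sets was 0.28 without a call. The interleukin-10 receptor gene Il10ra fell from 6.15 and 6.22 to 5.39 and 4.99, and the shared receptor gene Il6st rose from 8.22 and 8.29 to 9.03 and 8.85. With averaged probe sets Il10ra was at -0.24 (adjusted p = 0.213) and Il6st at 0.43 (adjusted p = 0.0975), neither called. Il7r, the receptor that sustains early thymocytes, differed by -0.62 and did not pass. Il10ra lost its call without replicate 1 or 2 of WT DN4, or replicate 2 of IkL/L DN4 (adjusted p up to 0.215), and Il6st without any 1 of the 4 DN4 arrays (adjusted p up to 0.148).

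Genes of proliferation lay slightly higher as groups, in which few members passed. Of 44 tested DNA replication genes 4 rose and none fell, and 41 lay above 0 (median 0.31; 0.11 after the second quantile normalization). Relative to the median of all genes, this list lay at 0.31 before and 0.22 after that normalization. The thymidylate synthase gene Tyms read 6.17 and 5.9 in WT and 7.42 and 8.33 in IkL/L cells, and its second probe set gave 0.26. None of Tyms (0.58), Rrm2 (0.51), Dnmt1 (0.45) and Mcm7 (0.37) was called with averaged probe sets. Rrm2, the ribonucleotide reductase subunit, read 12.29 and 12.29 against 12.76 and 13.04, the maintenance methylase gene Dnmt1 11.82 and 11.99 against 12.25 and 12.57 and the helicase subunit gene Mcm7 12.98 and 13.23 against 13.51 and 13.63. Of 37 mitosis and spindle genes 34 lay above 0 (median 0.35; 0.17 after the second quantile normalization), and Mki67, the proliferation marker, was the 1 call (12.87 and 12.98 against 13.43 and 13.47). Mki67, Rrm2, Dnmt1 and Mcm7 are among the brightest genes, whose brightest class had a median of 0.22, and after the second quantile normalization they were at 0.27, 0.35, 0.28 and 0.23 with no call. The calls of Tyms, Rrm2 and Mki67 were lost without any 1 of the 4 DN4 arrays, or replicate 1 or 2 of WT DN3 (adjusted p up to 0.238), with adjusted p up to 0.289 for Tyms and 0.267 for Rrm2. Dnmt1 lost its call without replicate 1 or 2 of WT DN3, replicate 1 or 2 of WT DN4, replicate 2 of IkL/L DN4, or replicate 1 or 2 of IkL/L DP (adjusted p up to 0.342), and Mcm7 without any 1 of the 4 DN4 arrays, replicate 1 or 2 of WT DN3, or replicate 1 or 2 of IkL/L DP (adjusted p up to 0.273).

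Among 32 genes of the G1 phase 4 rose and none fell (median 0.16). After the second quantile normalization the median was 0.01 and 1 member was called, with Cdkn1a (adjusted p = 0.0535), Rbl1 (0.0515) and Rb1 (0.0786) no longer called. Averaged probe sets gave 1 rise and 1 fall. The G1 median ranged from 0.079 (without IkL/L DN4 replicate 1) to 0.19 (without WT DN4 replicate 2) with 1 DN4 array left out, and 0 to 2 rises and 0 falls were called. The cell cycle inhibitor gene Cdkn1a read 7.44 and 7.72 in WT and 8.3 and 8.31 in IkL/L cells, the activator gene E2f3 8.95 and 8.82 against 9.52 and 9.52, and the pocket protein genes Rbl1 10.74 and 10.59 against 11.22 and 11.27 and Rb1 9.96 and 9.76 against 10.31 and 10.4. The second probe set of E2f3 gave -0.34, and the mean of both 0.15 with no call (adjusted p = 0.385). The cyclin gene Ccnd2 read 10.38 and 10.55 against 9.41 and 9.12 and was not called (adjusted p = 0.187). E2f3 lost its call without replicate 2 of WT DN4, or replicate 1 or 2 of IkL/L DN4 (adjusted p up to 0.115), Rbl1 without replicate 2 of WT DN4, or replicate 1 or 2 of IkL/L DN4 (adjusted p up to 0.116), Cdkn1a without any 1 of the 4 DN4 arrays, or replicate 1 or 2 of WT DN3 (adjusted p up to 0.203) and Rb1 without any 1 of the 4 DN4 arrays, or replicate 1 or 2 of WT DN3 (adjusted p up to 0.211).

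Few metabolic genes passed the test. None of 35 tested oxidative phosphorylation genes passed in limma at an adjusted p under 0.05, and 4 had an unadjusted p under 0.05. Their median was 0.21, and -0.01 after the second quantile normalization. Relative to the median of all genes, it was 0.21 before and 0.099 after that normalization. None of 23 ribosomal protein genes passed in limma either, 1 did with the mean of probe sets, and 0 had an unadjusted p under 0.05 (median 0.15, and -0.04 after that normalization). Both groups are bright, and their deposited medians are near or below the 0.22 of the brightest class of genes. Tktl1 was the 1 call among 24 genes of glucose uptake and glycolysis (median -0.13), and the glycolysis median ranged from -0.20 (without WT DN4 replicate 1) to -0.014 (without WT DN4 replicate 2) with 1 DN4 array left out, and 0 rises and 1 to 2 falls were called. In amino acid, nucleotide and one-carbon metabolism 3 of 32 members rose and 1 fell (median 0.05; -0.08 after the second quantile normalization). The amino acid list median ranged from -0.063 (without WT DN4 replicate 1) to 0.16 (without WT DN4 replicate 2) with 1 DN4 array left out, and 1 rises and 0 to 1 falls were called. Apart from Tyms, the cystine transporter gene Slc7a11 rose from 3.56 and 3.91 to 4.8 and 4.83, below the array median in both genotypes, and the amino acid transporter gene Slc38a2 from 11.54 and 11.44 to 11.94 and 12.11. The asparagine synthetase gene Asns fell from 6.5 and 6.38 to 5.63 and 6.06. Slc38a2 was not called after the second quantile normalization (0.32). Slc7a11 kept its call without each array, while Slc38a2 lost its call without any 1 of the 4 DN4 arrays, replicate 1 or 2 of WT DN3, or replicate 1 or 2 of IkL/L DP (adjusted p up to 0.27) and Asns without replicate 1 or 2 of WT DN3, replicate 1 or 2 of WT DN4, replicate 1 of IkL/L DN4, or replicate 1 or 2 of IkL/L DP (adjusted p up to 0.25).

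Of 26 tested regulators of survival 3 rose and 1 fell (median 0.05; -0.06 after the second quantile normalization). The death-promoting BH3-only gene Pmaip1, which encodes Noxa, rose from 4.68 and 4.96 to 6.01 and 5.89 (1.13 ± 0.13; adjusted p = 0.000437), and Bbc3, the BH3-only gene for Puma, fell from 6.62 and 6.89 to 6.19 and 6.11. The survival genes Bcl2l2 (6.21 and 6.09 against 6.93 and 7.24) and Xiap (9.49 and 9.34 against 10.14 and 10.14) rose, but neither was called with averaged probe sets (0.24, adjusted p = 0.196, and 0.35, adjusted p = 0.0741). The survival list median ranged from 0.023 (without IkL/L DN4 replicate 1) to 0.10 (without IkL/L DN4 replicate 2) with 1 DN4 array left out, and 1 to 2 rises and 0 to 1 falls were called. Bcl2 itself (-0.03) and Bcl2l1 (0.20), which sustains DP cells, were not called. Of 25 p53 target genes 4 rose and 4 fell, 32% of the list beside 6.88% of all tested genes, and the median was 0.13. The split was 2 rises and 6 falls after the second quantile normalization (median 0.04), and a filter at the 75th percentile left 3 rises and 0 falls. The p53 target median ranged from 0.034 (without WT DN4 replicate 1) to 0.13 (without IkL/L DN4 replicate 2) with 1 DN4 array left out, and 2 rises and 0 to 2 falls were called. The rises took in Pmaip1, Cdkn1a and the cyclin gene Ccng2 (9.44 and 9.21 against 10.61 and 10.37; adjusted p = 0.00238), and the falls took in Bbc3, the metabolic gene Tigar (6.53 and 6.64 against 5.94 and 5.73) and the stress gene Gadd45b (7.23 and 7.69 against 6.75 and 6.69). Tigar was at -0.40 with averaged probe sets (adjusted p = 0.0586). Pmaip1, below the array median on both WT arrays, and Ccng2 kept their calls without each array. Bcl2l2 lost its call without replicate 2 of IkL/L DN4 (adjusted p up to 0.0535), Xiap without any 1 of the 4 DN4 arrays (adjusted p up to 0.144), Bbc3 without replicate 2 of WT DN4, or replicate 1 or 2 of IkL/L DN4 (adjusted p up to 0.194), Tigar without replicate 1 or 2 of WT DN4, or replicate 2 of IkL/L DN4 (adjusted p up to 0.134) and Gadd45b without replicate 2 of WT DN4, replicate 1 or 2 of IkL/L DN4, or replicate 1 or 2 of IkL/L DP (adjusted p up to 0.271).

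Interferon response genes gave 2 rises and 1 fall among 34 tested members, a share of 8.82% that is near the 6.88% of all tested genes (median 0.18; 0.02 after the second quantile normalization). The viral RNA sensor gene Ifih1 rose from 8.03 and 7.99 to 9.24 and 8.93 (adjusted p = 0.00158), Oas1a from 6.86 and 6.98 to 7.8 and 7.54, and Epsti1 fell from 7.32 and 7.58 to 6.33 and 5.87 (adjusted p = 0.00119). The interferon list median ranged from 0.080 (without WT DN4 replicate 1) to 0.24 (without IkL/L DN4 replicate 2) with 1 DN4 array left out, and 1 to 3 rises and 1 falls were called. Averaged probe sets left Epsti1 at -0.60, still called. Ifih1 and Epsti1 kept their calls without each array, and Oas1a lost its call without replicate 1 or 2 of WT DN4, or replicate 1 of IkL/L DN4 (adjusted p up to 0.0968). Genes of the MHC class II pathway, used by antigen-presenting cells, gave 4 falls and 1 rise among 10 tested members (median -0.46). H2-Ab1 rose from 7.44 and 7.84 to 8.89 and 8.61. The invariant chain gene Cd74 fell from 7.21 and 6.94 to 6.38 and 6.29, and H2-Ea from 7.75 and 7.89 to 7.08 and 7.12. H2-DMb2 fell from 6.83 and 6.86 to 6.35 and 6.2, and H2-Ob from 4.93 and 4.93 to 4.19 and 4.06. All 4 H2-Ob values are below the array median. The summed signal of 10 dendritic cell markers was 1242 and 1184 in WT and 1437 and 1415 in IkL/L cells. Itgax, Cd209a, Xcr1 and Batf3 were below the array median on all 4 arrays. Of the 6 tested markers, 5 lay below 0 (list median -0.21), Cd74 among them. The 1 above 0 was Tcf4, also among the T lineage factors, at 8.76 and 8.66 in WT and 9.55 and 9.59 in IkL/L cells. The part of such cells in these values was not tested. All 5 calls depended on single arrays: H2-Ab1 lost its call without replicate 1 of WT DN4, or replicate 1 of IkL/L DN4 (adjusted p up to 0.0632), H2-Ob without any 1 of the 4 DN4 arrays (adjusted p up to 0.18), H2-DMb2 without any 1 of the 4 DN4 arrays (adjusted p up to 0.206), and H2-Ea without any 1 of the 4 DN4 arrays, or replicate 1 or 2 of WT DN3 (adjusted p up to 0.206). With averaged probe sets H2-Ab1 (0.51), H2-Ea (-0.33) and H2-DMb2 (-0.39) were not called. Cd74 lost its call without the same arrays as H2-Ea, with adjusted p up to 0.234.

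Stem and progenitor genes gave 1 rise and 2 falls among 23 tested members (median -0.14). Prom1 rose, as above. The surface lectin gene Cd93 fell from 6.85 and 6.92 to 5.76 and 5.86 (adjusted p = 0.000305) and the homeobox gene Hoxa7 from 7.42 and 7.62 to 6.7 and 6.55. Kit, the stem cell factor receptor gene, differed by -0.15 and was not called. The progenitor list median ranged from -0.17 (without IkL/L DN4 replicate 1) to -0.074 (without WT DN4 replicate 2) with 1 DN4 array left out, and 1 rises and 1 to 2 falls were called. Cd93 kept its call without each array (averaged probe sets -0.54), and Hoxa7 lost its call without replicate 2 of WT DN4, or replicate 2 of IkL/L DN4 (adjusted p up to 0.053).

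The chromatin complexes through which Ikaros works gave 1 call each, 7.14% of NuRD and 3.57% of Polycomb members, no more than about the 6.88% of all tested genes. In NuRD, the remodelling and deacetylase complex, Mta3 fell from 10.21 and 10.31 to 9.61 and 9.64 and was the 1 call among 14 members (median 0.16; -0.03 after the second quantile normalization). The ATPase gene Chd4 differed by 0.40 and was not called. Among 28 Polycomb genes, Jarid2 was the 1 call, a rise from 9.75 and 9.87 to 10.4 and 10.3 that was not called after the second quantile normalization (adjusted p = 0.07) or with averaged probe sets (adjusted p = 0.117), while the methyltransferase gene Ezh2 differed by 0.35 without passing. Both calls were lost when single arrays were left out, that of Mta3 without any 1 of the 4 DN4 arrays, or replicate 1 or 2 of WT DN3 (adjusted p up to 0.218) and that of Jarid2 without any 1 of the 4 DN4 arrays (adjusted p up to 0.129). Of 13 genes of V(D)J recombination only the polymerase gene Poll passed, at 5.73 and 5.89 against 5.23 and 5.2, and it lost its call without replicate 2 of WT DN4, or replicate 1 or 2 of IkL/L DN4 (adjusted p up to 0.11).

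Among 20 heat shock and chaperone genes Bag3 was the 1 call (5.96 and 5.69 in WT against 6.57 and 6.52 in IkL/L cells), and it was lost without replicate 2 of WT DN4, or replicate 1 or 2 of IkL/L DN4 (adjusted p up to 0.121). Neuronal and developmental genes, which thymocytes mostly keep low, gave 3 rises and 3 falls among 27 tested members (median 0.02; -0.08 after the second quantile normalization). The amyloid precursor gene App rose from 4.53 and 4.77 to 6.73 and 6.82 (2.12 ± 0.20; adjusted p = 7.35e-05), from below the array median on both WT arrays. Pdgfrb, a growth factor receptor gene, rose from 7.5 and 8.06 to 9.0 and 8.99, and Igf1r rose as above. Nefh and Ddc fell. The neuronal list median ranged from -0.088 (without IkL/L DN4 replicate 2) to 0.079 (without IkL/L DN4 replicate 1) with 1 DN4 array left out, and 2 rises and 1 to 2 falls were called. App kept its call without each array, and Pdgfrb lost its call without any 1 of the 4 DN4 arrays (adjusted p up to 0.189).

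The lists were chosen with earlier results of these data known, so a share above that of all genes may come from that choice. Read against the 6.88% of all tested genes, 50% of the MHC class II pathway and 34.8% of the DN3 list were called. The share called was 27.3% for Notch genes and 22.9% for transcription factors. It was 15.4% for survival, 13.8% for the DP list, 12.5% for the pre-T cell receptor and G1 lists, 9.09% for DNA replication and 2.7% for mitosis. Tubulins and microtubules had 29.4%, neuronal genes 22.2%, stem and progenitor genes 13% and amino acid metabolism 12.5%. Near or below the share of all genes were V(D)J recombination (7.69%), NuRD (7.14%), heat shock (5%), glycolysis (4.17%), Polycomb (3.57%) and receptor-induced genes (3.45%).

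**Figure D4:**
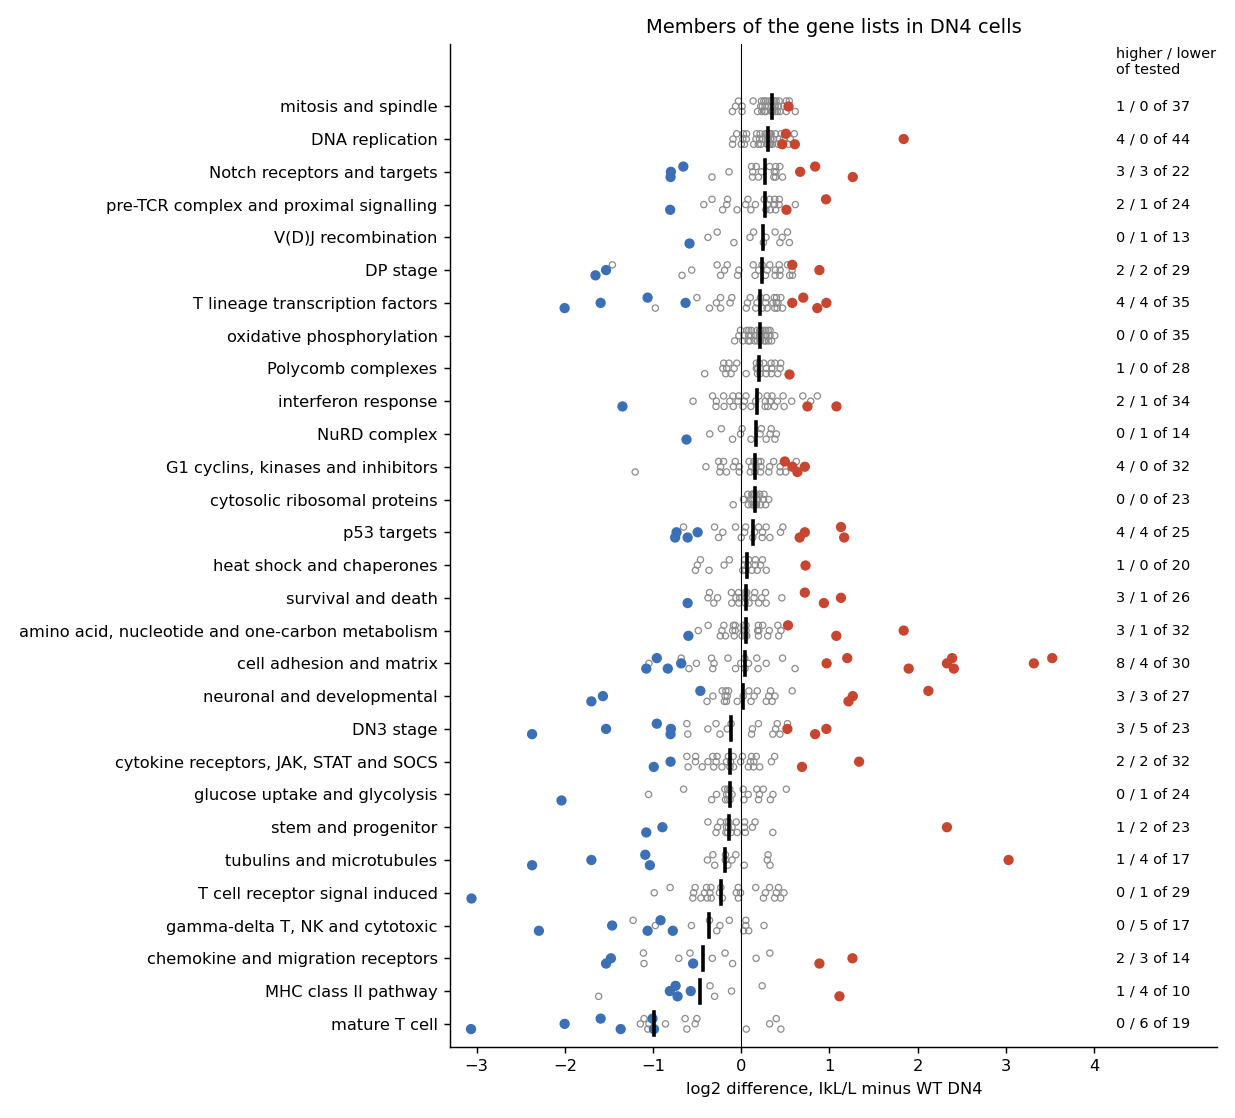
Difference IkL/L minus WT in DN4 cells (log2, horizontal) of each tested member of the gene lists (rows), with called members filled in red (higher) or blue (lower), others as open grey circles and the list median as a black bar. The mature T cell list has the lowest median, -0.99, and the adhesion list holds rises up to 3.53 beside falls.

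Part of the DN4 calls were shared with the neighbouring stages. Of the 802 DN4 calls, 275 (34.3%) were called in the same direction in DN3 cells, which is 55.1% of the 499 DN3 calls, and 1 in the opposite direction. In DP cells 240 (29.9%) were called in the same direction, 34.4% of the 697 DP calls, and 6 in the opposite one. At all 3 stages 121 genes were higher and 29 lower. Another 432 genes were called in DN4 cells alone. For 19 of them the effect itself differed by test between DN4 and another stage in the main fit. That fit does not link arrays of the same pool across stages. With the pool as a random block, all calls for DN4 minus DN3 went from 6 to 17. Those for DP minus DN4 went from 115 to 227. With the replicate block these counts were 6 and 90. How many of the 432 genes differed between stages in those fits was not counted, so 19 may be too low. Of the 15 largest rises 14 were called higher in DN3 and 14 in DP cells. Of the 15 largest falls 9 were called lower in DN3 and 3 in DP cells. Of all 11649 tested genes, 242 were called higher and 257 lower in DN3 cells, and 508 and 189 in DP cells. The 3 stages share 1 estimate of the spread per gene, so their calls are not independent.

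The effect in DN4 cells differed from that in DN3 cells for 6 genes (0.0515% of those tested), and 1126 had an unadjusted p under 0.05. In 3 of the 6 the difference was more positive in DN4 cells. Cdh1 read 8.06 and 7.8 in WT and 4.41 and 4.23 in IkL/L DN3 cells, but was low in both genotypes at the DN4 stage, so its effect was -3.61 and then -0.96. The actin-severing gene Scin followed the same course (-3.08 and -0.61). Med12l, a Mediator subunit gene, differed by 0.84 in DN3 and 2.05 in DN4 cells, and its WT level was lower in DN4 than in DN3 cells (5.39 and 5.28 against 7.18 and 7.22). In the other direction, the LIM-domain gene Lmcd1 was at 10.25 and 9.81 in IkL/L DN3 cells and 6.75 and 6.02 in IkL/L DN4 cells, with WT cells between 4.51 and 4.94 at both stages. Cttnbp2nl (3.58 and 1.31) and the collagen chaperone gene Serpinh1 (1.47 and -0.22) were the others.

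Between DN4 and DP cells the effect differed for 115 genes (0.987% of those tested), 77 with a more positive effect in DP cells and 38 with a more negative one, and 1755 had an unadjusted p under 0.05. Of the 115, 59 were also called in DN4 cells. The synaptotagmin gene Syt14 was below the array median on all DN4 arrays, at 4.21 and 4.01 in WT and 4.34 and 4.51 in IkL/L cells, and read 5.0 and 5.14 in WT and 8.52 and 8.73 in IkL/L DP cells. The collagen receptor gene Ddr1 read 5.18 and 5.58 in WT and 5.61 and 5.32 in IkL/L DN4 cells, against 5.91 and 6.68 in WT and 9.06 and 9.53 in IkL/L DP cells. Ddc changed sign: it was lower in IkL/L DN4 cells (-1.57) and higher in IkL/L DP cells (1.31; adjusted p = 0.00405). The gamma variable segment Trgv1, the Notch target Dtx1 and Cenpv also had a more positive effect in DP cells. The negative group was led by the Wnt ligand gene Wnt8b, higher in IkL/L DN4 cells (5.05 and 5.07 against 6.38 and 6.86) and not in DP cells (-0.73; adjusted p = 0.0995). Usp53, a ubiquitin protease family gene, was higher in IkL/L DN4 cells (1.42) and lower in IkL/L DP cells (-0.69; adjusted p = 0.033). Slc4a5, a bicarbonate transporter gene, was higher in IkL/L DN4 cells (2.03) and near level in DP cells (0.15). Rufy2, the noncoding gene Ftx and Med12l completed the 6 most negative. The comparisons of DN4 with DN3 and with DP share the DN4 arrays.

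**Figure D5:**
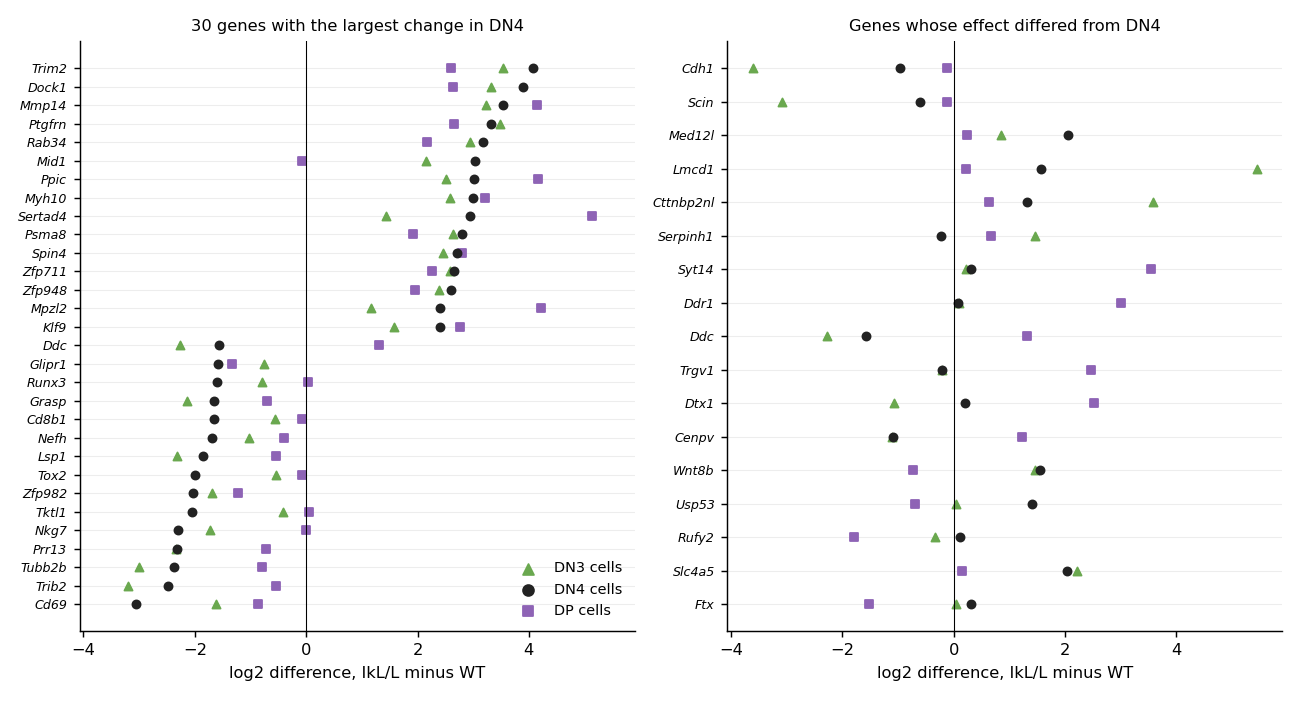
Difference IkL/L minus WT (log2, horizontal) in DN3 (green triangles), DN4 (black circles) and DP cells (purple squares) for the 30 genes with the largest changes in DN4 cells (left) and for genes whose effect differed between DN4 and another stage (right). Most of the 15 rises keep their sign at all 3 stages, while the DP values of Tox2, Runx3, Tktl1 and Nkg7 lie near 0. Lmcd1 and Cdh1 have their largest differences in DN3 cells.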

How the data were processed

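Total RNA of sorted thymocytes was labelled by a protocol with 2 cycles of amplification and measured on Affymetrix arrays, per the labels' protocols. The authors deposited log2 signals, 1 per probe set and array, processed with RMA per the submitters' processing notes (version not given in the sources used here), a method that corrects background, quantile normalizes and summarises probes. Array signal has no read depth, and the number of arrays limits precision. Of 45099 probe sets, 34958 carried 1 symbol in the platform table, 932 several and 9209 none. The gene ID of 34754 was found in RefSeq (GRCm38.p6), which changed 0 symbols.

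From these values each gene was represented by its probe set of highest mean over 12 arrays. A gene was tested if its signal reached the array median on 2 or more arrays, with limma 3.58.1 (R 4.3.3), 1 mean per group over all 12 arrays, 6 residual and 5.67 prior degrees of freedom. The threshold was a p of 0.05 after Benjamini-Hochberg adjustment over all tested genes. Every adjusted p in the text comes from limma, and SE is its moderated standard error. The fit was checked on simulated data.

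The members and gene lists were chosen with earlier results of these data known. The result of 1 list is not reported here. The text names Ikzf1, the 15 largest called rises and falls with non-overlapping arrays (skipping unnamed transcripts), up to 5 called members of each list, and up to 6 genes in each direction of a stage difference. Other members are named with values only, and genes given as context were chosen after their values were seen. Alternatives were the brightness filter, averaged probe sets, prior, array weights, centring, a second quantile normalization, replicate and pool blocks (statmod 1.5.0), DN4 arrays alone, a minimum difference, an actin 3′ minus 5′ covariate, and leaving out arrays. A quantile normalization with the replicate block was added after the data were examined. Where an array was left out, its group kept 1 array, assumed to vary like the others.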

Additional observations from a re-analysis of the deposited data

Results flagged for a closer look

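Groups of 2 arrays allow no check for a single outlying array, and the results here are genes whose difference between IkL/L and WT cells itself differed between stages by a test of the interaction (limma, adjusted over all tested genes). The effect in DN4 cells minus that in DN3 cells was 2.65 for Cdh1 (adjusted p = 0.000214), 2.47 for Scin (0.00221), 1.21 for Med12l (0.0473), -3.88 for Lmcd1 (0.000273), -2.27 for Cttnbp2nl (0.0127) and -1.69 for Serpinh1 (0.0119). Cdh1, Scin and Lmcd1 kept this call without each of the 12 arrays. Med12l lost it without any 1 of the 4 DN4 arrays, replicate 1 or 2 of WT DN3, replicate 2 of IkL/L DN3, or replicate 1 or 2 of IkL/L DP (adjusted p up to 0.257) and with the replicate block (adjusted p = 0.0758), Cttnbp2nl without replicate 1 of WT DN3, replicate 1 of WT DN4, or replicate 1 or 2 of IkL/L DN4 (adjusted p up to 0.102) and Serpinh1 without any 1 of the 4 DN4 arrays, or replicate 1 or 2 of WT DN3 (adjusted p up to 0.102).

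For the effect in DP cells minus that in DN4 cells, the most positive values were 3.24 for Syt14 (adjusted p = 3.28e-05), 2.91 for Ddr1 (0.00252), 2.88 for Ddc (0.00236), 2.67 for Trgv1 (0.0252), 2.33 for Dtx1 (0.0311) and 2.33 for Cenpv (0.0336). The most negative were -2.29 for Wnt8b (0.00706), -2.1 for Usp53 (0.00236), -1.89 for Rufy2 (0.0057), -1.87 for Slc4a5 (0.00361), -1.83 for Ftx (0.0247) and -1.81 for Med12l (0.00138). Trgv1 lost this call without replicate 1 or 2 of WT DN4, replicate 2 of WT DP, replicate 1 of IkL/L DN4, or replicate 2 of IkL/L DP (adjusted p up to 0.105), Dtx1 without any 1 of the 4 DN4 arrays, replicate 1 or 2 of WT DN3, replicate 1 of WT DP, or replicate 2 of IkL/L DP (adjusted p up to 0.183), Cenpv without any 1 of the 4 DN4 arrays, replicate 1 of WT DP, or replicate 2 of IkL/L DP (adjusted p up to 0.187) and Ftx without any 1 of the 4 DN4 arrays, replicate 1 of WT DP, or replicate 1 or 2 of IkL/L DP (adjusted p up to 0.136). The other 8 kept it without each array.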

How the results depend on the processing

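The counts of genes called in DN4 cells (802; 513 higher, 289 lower) moved by over 1.5 times as follows: the filter at the 75th percentile gave 508 (127 lower), array weights 1604 (1000 and 604), the DN4 arrays alone 1433 (901 and 532), the fit without the 3 IkL/L replicate 2 arrays 410 (296 and 114), a minimum difference of 1 41 (34 and 7), and the actin covariate 1333 (928 higher). The second quantile normalization gave 704 lower genes, and 622 with the replicate block. Leaving out 1 array gave 248 to 1101 genes, 187 to 714 higher and 61 to 387 lower. Without the filter 876 were called, with averaged probe sets 781 (518 shared with the main calls), and with the trend and robust prior 974. With averaged probe sets 2 of the 802 changed sign, and with the other alternatives none did. For most of those a change was not possible. They left the DN4 difference as it was, or left out or weighted arrays of groups that did not overlap. The second quantile normalization, centring and the actin covariate could have changed a sign.

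For the effect in DN4 minus that in DN3 cells (6 genes), the 75th percentile filter and averaged probe sets gave 3 each, the trend and robust prior and array weights 13 each, the second quantile normalization 10, a random block for the pool 17, the fit without the IkL/L replicate 2 arrays 12, a minimum difference of 1 2, the actin covariate 28, and leaving out 1 array 3 to 20. For DP minus DN4 (115 genes), the values were 75 with that filter, 227 with the pool block, 38 without the IkL/L replicate 2 arrays, 1 with a minimum difference of 1, 186 with the actin covariate, and 36 to 205 on leaving out 1 array.

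Same-numbered WT and IkL/L DN4 arrays did not deviate together (r = -0.097 across genes), so their numbers were not taken as pairs of the genotypes. Across stages of 1 genotype, r was 0.317 for WT DN3 and DN4, 0.271 for WT DN4 and DP, 0.494 for IkL/L DN3 and DN4 and 0.0149 for IkL/L DN4 and DP. With the replicate block 736 genes were called in DN4 cells (692 shared), 480 higher and 256 lower, 6 for DN4 minus DN3 and 90 for DP minus DN4. Of the genes named for their DN4 call, Ubash3b, Cst7, Ctsw, Tyms, Mcm7, Mki67, Asns, Gadd45b, Cd74 and Mta3 were not called with it (adjusted p 0.0514 to 0.067). The uncalled DN4 differences of 3 genes changed sign: Ddr1 was at -0.069 with averaged probe sets and between -0.117 and 0.28 on leaving out 1 array, Dtx1 at -0.043 without the IkL/L replicate 2 arrays and between -0.054 and 0.44, and Trgv1 between -0.49 and 0.066. The actin 3′ minus 5′ difference in DN4 cells was 1.74 and 1.93 (WT) and 1.93 and 2.39 (IkL/L). Why these values move was not tested.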

Other observations

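Some transcripts outside the comparisons stood apart on 1 DN4 array. IkL/L replicate 1 had the highest signals of S100a8 (7.09, against 4.49 on IkL/L replicate 2 and 4.55 and 5.27 in WT cells), which neutrophils express, and of the erythroid gene Alas2 (8.64, against 5.85 and, in WT cells, 6.56 and 7.13). None of these differences passed the test. The summed signal of 6 erythroid markers was 763 on that array and between 259 and 360 on the other 3.

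Ddc is the second protein-coding gene after Ikzf1 along the chromosome in the RefSeq table (GRCm38.p6), with Fignl1 between them, which was noticed after the values were seen. Fignl1 read 11.27 and 11.04 in WT and 11.27 and 11.19 in IkL/L DN4 cells and was not called at any stage. Ddc differed by -2.27 in DN3, -1.57 in DN4 and 1.31 in DP cells, and Ikzf1 by -0.65, -0.63 and -0.70. Of the 5 genes on either side of Ikzf1, 3 were tested, and the third, Cobl, was not called at any stage (-0.44 in DN4 cells).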
